A study of Mus musculus with 96 samples.

Results

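Transcripts of 10 genes for growth-regulated transcription factors and immediate early proteins were followed in single cells of C10, a mouse lung line labelled as alveolar type II epithelial. The 10 are Fos, Fosl1, Fosl2, Jun, Junb, Jund, Egr1, Myc, Ier3 and Atf3. They were taken by name from the 40202 genes in the files, and 9 of them passed a minimum mean of 5 CPM over the groups, where CPM is counts per 1000000 counts of the group. Jun did not pass. The control group was 48 untreated single cells. The RO-3306 group was 48 cells given the compound, sold as a CDK1 inhibitor, at a labelled 10 nM for 36 h. All cells were grown in the same serum-containing medium, dispensed singly and made into SMART-seq libraries after nanoSPLITS, which divides the lysate of a cell between RNA and protein measurement.

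The AP-1 factor is a dimer of leucine zipper proteins. A Jun protein pairs with another Jun protein, with a Fos protein or with a member of the ATF group such as Atf3. Fos, Jun, Egr1 and Ier3 are immediate early genes, which growth factors and stress switch on through MAP kinases and the factor SRF without new protein synthesis, and whose mRNAs are short-lived. Myc binds DNA as a dimer with Max and drives genes of cell growth and ribosome production.

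A cell was kept if it had 50000 counts or more and 1000 genes or more, which left 29 control and 37 RO-3306 cells. Their totals ran from 59979 to 6457215 counts in control and from 295005 to 5321880 in RO-3306. The labels name no culture behind the cells, so each treatment is 1 sample, no test was made, and no difference below has a replicate check. Intervals are exact 95% Poisson intervals for CPM and exact Clopper-Pearson intervals for shares. The Poisson intervals cover counting error only, and are too narrow even for that, since the reads carry no molecular identifiers and include PCR copies. The intervals for shares treat cells as separate draws. Neither kind covers differences between cultures. After thinning to one depth, the genes found per cell had a median of 4588 in control and 5960.5 in RO-3306. Mitochondrial genes gave a median of 3.40% and 4.42% of counts, with 56.0% in RO-3306 cell B3. The part of depth, gene number and mitochondrial share in the differences below was not tested. Of the defining alveolar type II markers, Sftpa1, Sftpc, Sftpd, Slc34a2 and Napsa were at 0 in all kept cells, and the list of 8 summed to 9.61 CPM in control against 5.40 in RO-3306, with a count of any in 13 of 29 and 16 of 37 cells. The 6 epithelial markers summed to 1.78 and 0.978 CPM and the 6 endothelial markers to 0.619 and 0.311 CPM. The 8 macrophage and leukocyte markers summed to 58.6 and 61.3 CPM, nearly all from Lyz2 and Cd14, while Ptprc had a count in 0 and 1 cells and C1qa in none. The 8 mesenchymal markers summed to 6676 and 3505 CPM. All 8 had a log2 ratio below 0, with a median of -0.91, beside -0.22 for all genes of at least 5 CPM. As defined below, 2 of the 8 were called lower (25%, beside 6.43% of those genes). The called markers were Col3a1 (603 and 83.6 CPM) and Col1a1 (714 and 127 CPM). The defining markers of the labelled cell type were thus at or near 0. The part of these markers in the results below was not tested.

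Atf3 was called higher in RO-3306 and Junb was called lower. A call needs a log2 ratio of summed CPM, with 1 CPM added to both groups, of at least 1 or at most -1, and the same sign in each of the 4 sets that the titles letter A to D. The letters are not explained in the labels, and the sets are not replicates. Where a set is left out below, a call needs the same sign in the remaining sets only, which more genes meet. Of the 9374 genes of at least 5 CPM, 7.23% were called higher and 6.43% lower, so 1 of 9 members in each direction is close to that background. The sign was the same in every set for 2 of 9 members and for 23.4% of those genes. A log2 ratio above 0 was found in 4 of 9 members, beside 41% of the genes. The median log2 ratio of the members was -0.45, also with Egr1 at the limit given below, beside -0.22 for all those genes. TMM factors moved the median of all genes from -0.22 to -0.01 and DESeq2 factors to 0.01. With them 66.2% and 67.4% of all calls were higher, against 52.9% with total counts. The sign of each member was the same with TMM and DESeq2 factors as with total counts.

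**Figure D1:**
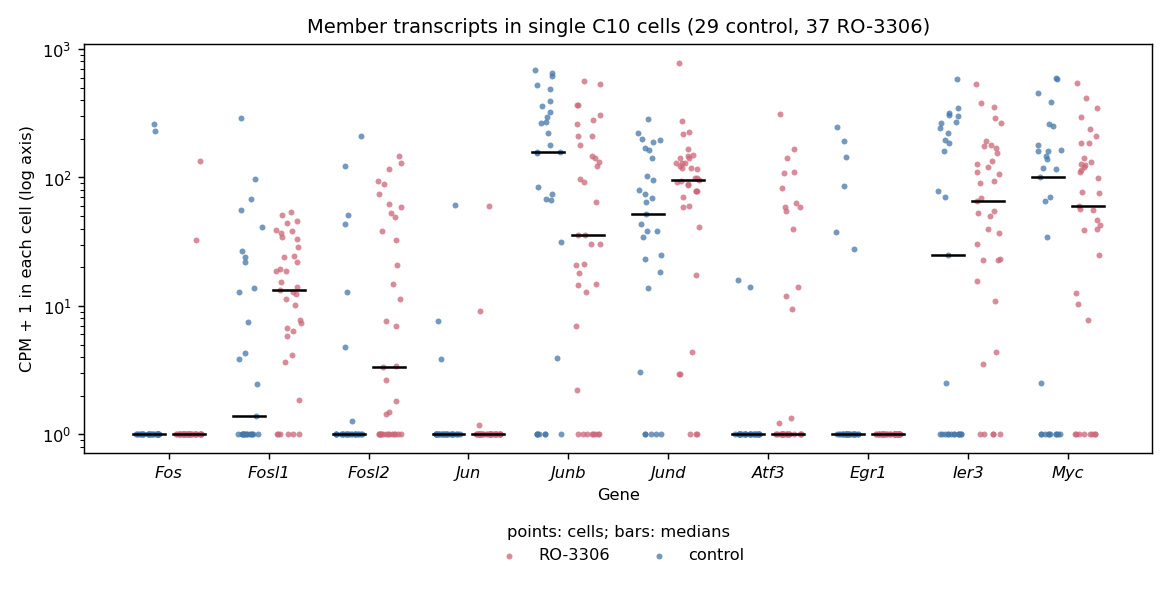
Transcript level of each of the 10 genes in every kept cell, as CPM plus 1 on a log axis, with 29 control cells in blue and 37 RO-3306 cells in red and a black bar at each median. Fos, Jun and Egr1 sit at 0 CPM in nearly all cells, and Atf3 is present in 16 RO-3306 cells against 2 control cells.

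The Fos family encodes AP-1 subunits that cannot pair with themselves and need a Jun partner. Fos itself was found in few cells of either group. It is a gene of 3385 nt on chromosome 12, from 85520664 to 85524048 of GRCm39. In control it was at 0 in 27 of the 29 cells and reached 230 CPM in cell B1 and 261 CPM in cell B5. In RO-3306 it was at 0 in 35 of 37 cells, with 134 CPM in cell A3 and 31.8 CPM in cell B5. Both groups thus had 2 cells with Fos, and the ranges overlap. Summed over cells, Fos was at 28.96 CPM in control (27.7 to 30.3) and 3.80 in RO-3306 (3.42 to 4.22), for a log2 ratio of -2.64. That value rests on set B: without it the log2 ratio was 2.05. No direction was called, since the log2 ratio was 3.76 in set A and -3.46 in set B, and sets C and D had no Fos count.

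The stretch before the Fos start is shown because Fos is the classic immediate early gene, which was at 0 in all but 2 kept cells of each group. The 250 bases before the RefSeq start, on chr12:85473640-85473889 of GRCm38.p6 (plus strand), hold TGACG at bases -129 and -66 and TATAAA at base -33, counted back from the start. These matches are in capitals. TGACG is the core of the cAMP response element, and on either strand it occurs in 17.8% of all 32851 windows of this length, while TATAAA, the TATA box, occurs in 12.4%.
Fos: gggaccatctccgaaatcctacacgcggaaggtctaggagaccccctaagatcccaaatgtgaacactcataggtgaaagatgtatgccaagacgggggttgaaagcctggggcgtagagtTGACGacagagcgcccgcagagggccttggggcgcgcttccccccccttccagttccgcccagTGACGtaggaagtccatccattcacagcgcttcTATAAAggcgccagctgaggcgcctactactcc
The sequences are on an older build than the counts, whose files use GRCm39. A match describes the letters in the window and is no evidence of a bound site.

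Fosl1 encodes Fra-1, a Fos relative without the strong activation domain of Fos. Its transcripts were spread over more cells in RO-3306 at much the same summed level. At equal depth 71.8% of all genes of at least 5 CPM were likewise found in a larger share of RO-3306 cells. In control the lowest cell was at 0, the median at 0.397 CPM and the highest, A7, at 289 CPM. In RO-3306 the lowest was at 0, the median at 12.4 CPM and the highest at 52.4 CPM. Of the control cells 15 of 29 had a count, and of the RO-3306 cells 31 of 37. Among cells with a count the medians were alike, at 20.9 and 17.6 CPM, and cell A7 held 48.6% of all control counts. Summed over cells it was 15.3 CPM (14.4 to 16.3) in control and 17.8 (16.9 to 18.7) in RO-3306. This is a log2 ratio of 0.20, which was -0.52 in set A and 0.74 to 2.43 in the other sets. Without set A the log2 ratio was 1.11 and the gene was called higher. With cells weighted equally it was -0.38, so the sign depends on the weighting. Fosl1 (chromosome 19, 5497726 to 5505966) overlaps Ccdc85b on the opposite strand over 33.7% of its span, and reads there may be left uncounted.

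Fosl2 encodes Fra-2, the other Fos relative of this kind. It lies on chromosome 5, from 32292599 to 32315184. Of the control cells 7 of 29 had a count, against 23 of 37 in RO-3306. Control cells ran from 0 through a median of 0 to 211 CPM in A1, which held 57.7% of the control counts. RO-3306 cells ran from 0 through a median of 2.37 to 145 CPM. The groups overlap from 0 to 145 CPM. The sums were 20.7 CPM (19.6 to 21.8) and 22.9 CPM (21.9 to 23.9), a log2 ratio of 0.14. Without the top cell of each group it was 1.01, and without set B it was -0.34. Of the Fos family counts in control, 44.6% came from Fos, 23.6% from Fosl1 and 31.8% from Fosl2. In RO-3306 these shares were 8.55%, 39.98% and 51.5%, and a family count was present in 36 of 37 cells against 19 of 29. These numbers of cells are not at equal depth, where 71.8% of all genes of at least 5 CPM had a larger share in RO-3306.

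**Figure D2:**
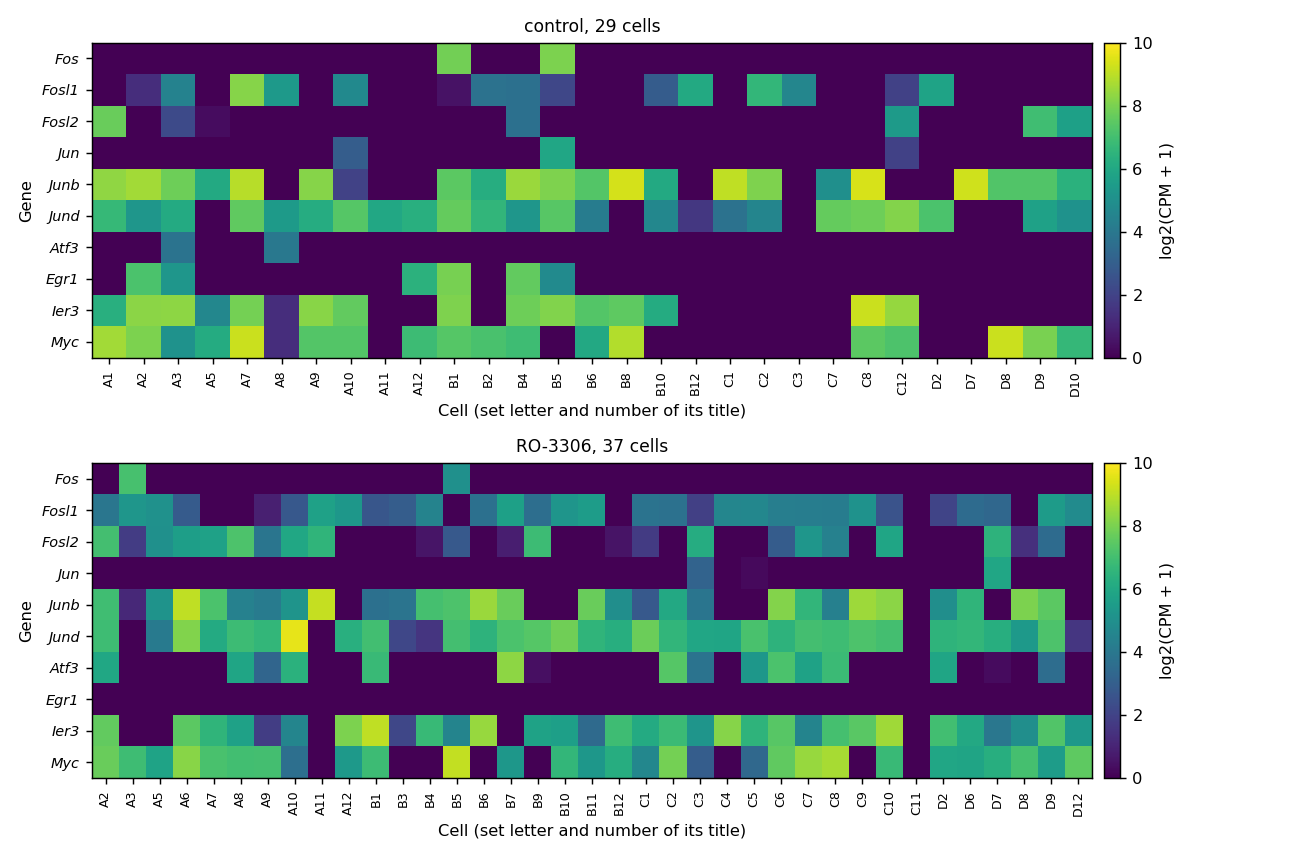
Levels of the 10 genes in each kept cell as log2(CPM + 1), with genes in rows and cells in columns, 29 control cells above and 37 RO-3306 cells below. Dark squares are 0; the Egr1 row is dark in all RO-3306 cells, and the Fosl1 row is filled in 31 of them.

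The Jun family supplies the partners that Fos proteins need, and all 3 of its genes lack introns. Jun, the strongest activator among them, was nearly absent. It had counts in 3 control and 3 RO-3306 cells, and its highest values were 59.6 CPM in control cell B5 and 59.2 CPM in RO-3306 cell D7. Those cells held 95.6% and 93.3% of its counts. Its sum was 4.82 CPM in control (4.30 to 5.38) and 3.04 in RO-3306 (2.69 to 3.41). Jun lies on chromosome 4, from 94937273 to 94940459. Its log2 ratio of -0.53 was 1.90 without set B and -2.34 without set D, so the sign rests on those cells.

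Junb encodes a Jun protein that activates weakly and can hold back Jun. Per length it had the highest control level of the Fos and Jun family members, and its summed level in RO-3306 was below that of control. Control cells ran from 0 through a median of 156 CPM to 680 CPM in C8. RO-3306 cells ran from 0 through a median of 34.4 CPM to 560 CPM in A11. The ranges overlap almost fully, with the RO-3306 median under that of control. The summed level was 233 CPM (229 to 237) in control and 106 CPM (104 to 108) in RO-3306, a ratio of 0.454 (0.443 to 0.466). The log2 ratio of -1.13 was between -1.71 and -0.99 in the 4 sets. The share of cells with a count was 22 of 29 and 29 of 37. Among those cells the medians were 243 and 96.1 CPM. The call was lost under TMM factors (-0.92), under DESeq2 factors (-0.90) and with cells weighted equally (-0.84), where the value passed above -1. Junb (chromosome 8, 85703538 to 85705377) had fractional counts in 43.4% of the libraries that had any, which marks reads shared with similar sequences.

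The Junb window is shown as that of the member called lower. On chr8:84978749-84978998 of GRCm38.p6 (minus strand) it holds TGACG at base -106, in capitals. It holds no TATAAA.
Junb: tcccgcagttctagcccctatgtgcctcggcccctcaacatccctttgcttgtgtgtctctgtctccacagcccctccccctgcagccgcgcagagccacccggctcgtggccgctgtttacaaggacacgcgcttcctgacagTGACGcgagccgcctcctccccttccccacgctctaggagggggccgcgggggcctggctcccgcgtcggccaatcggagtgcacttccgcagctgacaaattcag
RefSeq windows were found for 7 of the 10 members. Fosl1, Egr1 and Myc had none in the table.

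Jund encodes the Jun protein usually tied to resting cells, where it is made steadily. Its sum was somewhat higher in RO-3306, short of a call. Control cells ran from 0 through a median of 51.1 CPM to 282 CPM, and RO-3306 cells from 0 through 94.8 CPM to 784 CPM in A10. These sum to 80.1 CPM (78.0 to 82.3) in control and 104 (102 to 106) in RO-3306. The log2 ratio of 0.37 was above 0 in set A (0.66), set B (0.44) and set D (1.57) and below 0 in set C (-0.52). It stayed between 0.25 and 0.60 under the 13 alternatives, below the size of a call. Jund (chromosome 8, 71150389 to 71153265) had fractional counts in 35.5% of libraries with a count. Within the Jun family, Junb gave 73.3% of control counts and Jund 25.2%, against 49.7% and 48.9% in RO-3306. The family sum was 318 CPM (314 to 322) in control against 213 (209.9 to 216) and was lower in all 4 sets, by -0.91 to -0.38 on the log2 scale.

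Atf3 encodes a stress-induced zipper protein that pairs with Jun proteins and mostly represses. Its transcripts appeared in a part of the RO-3306 cells. In control it was at 0 in 27 of 29 cells, with 13.1 CPM in A3 and 14.99 CPM in A8. In RO-3306 it had counts in 16 of 37 cells, running up to 310 CPM in B7, with a median of 57.9 CPM among those 16. The median over all cells was 0 in both groups, so the groups overlap at 0. Of the 16 cells, 11 exceeded the highest control cell. Summed over cells, Atf3 was at 1.41 CPM (1.14 to 1.73) in control and 29.7 (28.6 to 30.8) in RO-3306, a ratio of 21.1 (17.2 to 26.2). The log2 ratio was 3.67 and lay between 1.91 and 5.50 in the sets. In sets B, C and D the control value was 0, so the added 1 CPM fixes those ratios. The call held under all 13 alternatives, from 2.44 with 5 CPM added to 5.07 without set A. At equal depth 2 of 25 control cells (8%, interval 0.984% to 26.03%) and 15 of 34 RO-3306 cells (44.1%, 27.2% to 62.1%) had a count.

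The Atf3 window is shown as that of the member called higher. On chr1:191183334-191183583 of GRCm38.p6 (minus strand) it holds TTGCATCA at base -110, in capitals. This is a C/EBP-ATF composite element of the kind ATF4 uses in stress genes, and 0.791% of all windows hold it on either strand. Near the start CGTCA, the reverse complement of TGACG, stands at base -7, also in capitals.
Atf3: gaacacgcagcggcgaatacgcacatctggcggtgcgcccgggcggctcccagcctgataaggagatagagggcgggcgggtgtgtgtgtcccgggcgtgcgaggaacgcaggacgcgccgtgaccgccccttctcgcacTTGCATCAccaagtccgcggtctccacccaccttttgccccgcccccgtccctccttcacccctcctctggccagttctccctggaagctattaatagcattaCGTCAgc
The full cAMP response element TGACGTCA, the AP-1 site TGACTCA, the Myc site CACGTG and the CArG box bound by SRF were searched on both strands too. None matched in the 7 windows, and they occur in 1.55%, 4.46%, 6.02% and 1.47% of all windows. Bases further from the start than the windows reach were not searched, and Egr1 had no window. The lack of a match therefore does not show that Fos or any other member has no such site. TGACG is contained in TGACGTCA. Atf3 lies on chromosome 1, from 190902493 to 190915530 of GRCm39.

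**Figure D3:**
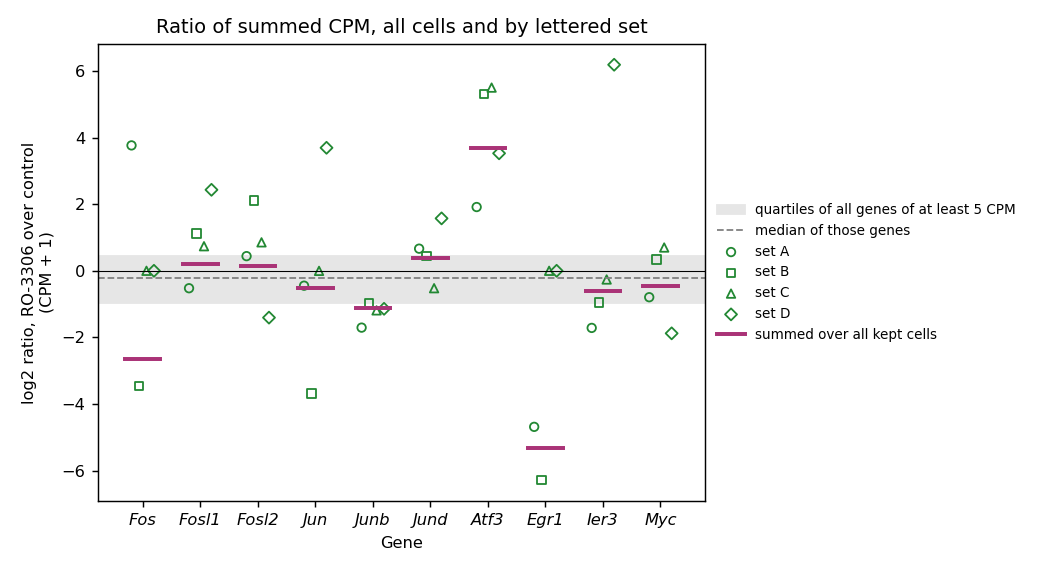
Log2 ratio of RO-3306 over control for each gene, with 1 CPM added to both, for all kept cells (purple bars) and for sets A to D (open symbols), over the quartiles of all genes of at least 5 CPM (grey). Junb lies below 0 and Atf3 above 0 in every set, while the other genes change sign or are at 0 in some set. The place of the Egr1 bar depends on the added 1 CPM.

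Egr1 encodes a zinc finger factor that SRF switches on within the immediate early program. It had counts in 6 control cells and in no kept RO-3306 cell. Those 6 had 245.7 CPM (B1), 190.1 CPM (B4), 142 CPM (A2), 84.8 CPM (A12), 36.9 CPM (A3) and 26.6 CPM (B5), and the other 23 were at 0. All 37 RO-3306 cells were at 0. The control sum was 39.3 CPM (37.8 to 40.8). In RO-3306 the sum was 0, where 3 counts over the whole group would be 0.0323 CPM and 3 of 37 cells would be 8.11%. These limits for a 0 cover counting only, and no fold is given because few cells carried the gene in control too. Since control sets C and D had none either, no call was made and the difference rests on sets A and B. After thinning, Egr1 was left in 5 of 25 cells of the control (20%) and in 0 of 34 given RO-3306. Egr1 lies on chromosome 18, from 34994260 to 34998009. Both control cells with Fos, B1 and B5, were among its 6 cells, and B5 also held Jun.

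Ier3 encodes a small early response protein linked to survival and to ERK signalling. A larger share of cells held it in RO-3306, as at equal depth for 71.8% of all genes of at least 5 CPM. The median among cells with a count was lower in RO-3306. Control cells ran from 0 through a median of 23.8 CPM to 583 CPM in C8, and RO-3306 cells from 0 through 64.8 CPM to 533 CPM in B1. Counts were present in 16 of 29 and 32 of 37 cells, and among those cells the medians were 230 and 91.7 CPM. Summed levels were 159.5 CPM (156 to 163) and 104 CPM (102 to 106), a log2 ratio of -0.61. It was below 0 in set A (-1.71), set B (-0.95) and set C (-0.26) and 6.19 in set D, where all 5 control cells were at 0. Ier3 is a gene of 1199 nt on chromosome 17, from 36132605 to 36133803.

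Myc was not called in either direction. It lies on chromosome 15, from 61857190 to 61862210. Control cells ran from 0 through a median of 100.04 CPM to 590.4 CPM in A7, and RO-3306 cells from 0 through 59.4 CPM to 539.8 CPM in B5. Counts were present in 19 of 29 and 29 of 37 cells, and the groups overlap throughout. Summed levels were 146 CPM (144 to 149) in control and 107 (104.8 to 109) in RO-3306, which gives a log2 ratio of -0.45. The sets ran from -1.88 in D to 0.70 in C, and without set D the value was -0.14. Cell B5 held 22.6% of the RO-3306 counts.

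**Figure D4:**
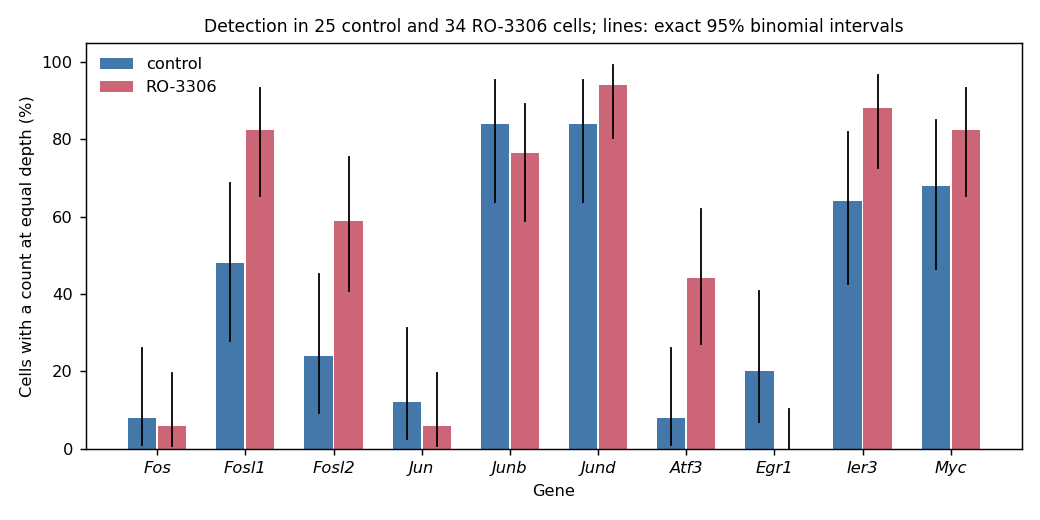
Share of cells with a count of each gene after every cell was thinned to the same number of reads, for 25 control cells (blue) and 34 RO-3306 cells (red), with exact 95% binomial intervals. Fosl1 had a count in 48% of control and 82.4% of RO-3306 cells, and Atf3 in 8% and 44.1%.

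At equal depth a larger share of RO-3306 than of control cells held Fosl1, Fosl2, Jund, Myc, Ier3 and Atf3, which is 6 of the 9 members, while 71.8% of all genes of at least 5 CPM did so. The share for Fosl1 was 48% (27.8% to 68.7%) in control and 82.4% (65.5% to 93.2%) in RO-3306. For Fosl2 it was 24% (9.36% to 45.1%) and 58.8% (40.7% to 75.4%), and for Ier3 64% (42.5% to 82.0%) and 88.2% (72.5% to 96.7%). The intervals describe the cells at hand and make no comparison of treatments, each of which is 1 sample. Before thinning, each control cell had at least 1 member, with a median of 4 and a maximum of 8, against a median of 6 and a maximum of 8 in RO-3306. After thinning the medians were 4 and 5.5. RO-3306 cell C11, with 2159 genes, had none.

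Per length, the order of levels differed between the groups. Summed CPM per 1000 nt of the longest coding transcript was highest for Ier3 in both, at 141 in control and 92.2 in RO-3306. In control Junb (129), Myc (62.7), Jund (48.05) and Fos (13.7) followed. Then came Fosl1 (8.23), Fosl2 (3.17), Jun (1.51) and Atf3 (0.710). In RO-3306 Jund (62.4) stood above Junb (58.5), and Myc (45.7), Atf3 (14.97), Fosl1 (9.54), Fosl2 (3.50), Fos (1.804) and Jun (0.953) followed. Egr1 was left out, because its GENCODE transcript of 4484 nt is longer than the 3750 nt over which RefSeq counts were made. That of Jun is longer than its span by 2 nt. That of Jund, at 1668 nt, is shorter than the intronless span of 2877 nt over which its counts were made. The place of Jund above Junb and Myc in RO-3306 therefore depends on the length used. The spread over cells is far wider than these counting intervals.

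Of the 6 pairs among Junb, Jund, Myc and Ier3, which were found in most cells of both groups, Spearman's rho over 25 control cells at equal depth ran from -0.11 (Junb and Jund) to 0.50 (Jund and Ier3). Over 34 RO-3306 cells it ran from -0.02 (Myc and Ier3) to 0.19 (Junb or Jund with Ier3). These are descriptions over cells that share depth and library effects. Among 2960 genes of at least 50 CPM in both groups, those most like a member, by the lower of the 2 rhos, included Hnrnph1 (0.52 in control and 0.51 in RO-3306) for Junb. For Jund they were Fkbp7 (0.51 and 0.60) and Nme6 (0.43 and 0.45). For Myc they included Ptpra (0.47 and 0.44), and for Ier3 they were Tm4sf1 (0.42 and 0.46) and Nutf2 (0.45 and 0.41).

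A list of other immediate early genes was set beside the members. Of its 42 genes, 31 had at least 5 CPM, of which 4 were called lower, 2 higher and 25 neither, beside 6.43% and 7.23% of all genes. A ratio above 0 was found in 5 of the 31, beside 41% of all genes. Their median was -0.82, beside -0.22. It became -0.62 under TMM factors, beside -0.01 for all genes, and -0.48 without set A. Ccn1, a secreted matrix protein gene, went from 340 to 60.6 CPM (-2.47), Ier2 from 83.0 to 25.4 CPM (-1.67) and the kinase gene Sgk1 from 127 to 45.8 CPM (-1.45). Btg1, which slows cell growth, went from 55.8 to 288 CPM (2.35) and the stress kinase gene Plk3 from 4.604 to 30.3 CPM (2.48). Fosb, Egr3, Egr4, Dusp2, Gem and Arc had no count in any kept cell. Zfp36 was also at 0, but its span lies wholly inside Paf1, where reads may be left uncounted.

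Of 18 other AP-1 and partner genes, 12 were measured, with 1 called higher (8.33%), 0 lower and a median of -0.47. Over all genes these were 7.23%, 6.43% and -0.22. Without set A, or without set C, 2 were called lower, beside 9.80% and 11.5% of all genes. The called gene was Crem, a cAMP-responsive factor, at 2.14 and 24.9 CPM (3.05), which was 0.96 and not called with cells weighted equally. Of the 21 measured genes of the MAP kinase and SRF pathway, 0 were called, beside 13.7% of all genes. Their median was -0.31, beside -0.22. Under TMM or DESeq2 factors 2 were called higher, beside 9.40% and 9.69% of all genes. The medians were then -0.10 and -0.08, beside -0.01 and 0.01 for all genes. Without set A 2 were called higher and 1 lower, beside 10.8% and 9.80% of all genes. Of 7 measured ERK feedback genes, 1 was called higher (14.3%, beside 7.23% of all genes) and 0 lower. This was the MAP kinase phosphatase gene Dusp4, at 9.39 and 37.1 CPM (1.87). The median of these 7 genes was -0.61, beside -0.22, and 5 of them had a log2 ratio below 0. Without set B the median was -0.05 and 2 were called higher, beside 11.3% of all genes. Without set D 2 were called lower, beside 10.5% of all genes. The list shares Ier3 with the members.

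**Figure D5:**
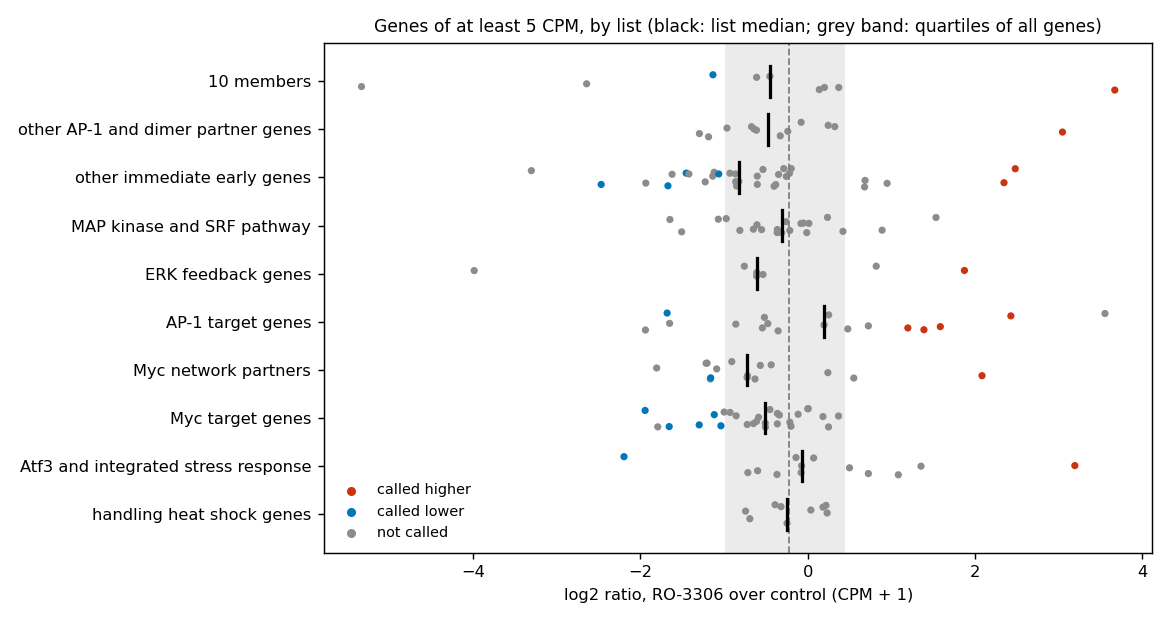
Log2 ratio of RO-3306 over control, with 1 CPM added to both, for each gene of at least 5 CPM in the 10 members and the related lists, with called genes in colour, list medians in black and the quartiles of all genes in grey. The median of other immediate early genes is at -0.82 and that of AP-1 target genes at 0.20, which turns negative without set B or without set C.

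Genes known as AP-1 targets went both ways. Of 17 measured, 4 were called higher and 1 lower, which is 23.5% and 5.88% beside 7.23% and 6.43% of all genes. Their median was 0.20, beside -0.22 for all genes, but -0.15 without set B and -0.07 without set C. Hmox1, which breaks down haem, went from 22.4 to 125 CPM (2.43), the urokinase receptor gene Plaur from 48.9 to 149 CPM (1.59) and the cyclin gene Ccnd1 from 63.5 to 168 CPM (1.39). Lmna, for a nuclear lamin, went from 495 to 154 CPM (-1.68). Timp1 and Il6 lie wholly inside other gene spans and were at 0.

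Targets of Myc include genes of ribosome production and growth. Of 27 measured Myc target genes, 5 were called lower (18.5%, beside 6.43% of all genes) and 0 higher (beside 7.23%). A ratio above 0 was found in 5 of the 27, beside 41% of all genes. The median was -0.51, beside -0.22, and -0.30 under TMM factors, beside -0.01 for all genes. Mybbp1a went from 137 to 34.9 CPM (-1.94), Wdr43 from 218 to 68.6 CPM (-1.65) and Fbl, a nucleolar methyltransferase gene, from 145 to 58.3 CPM (-1.30). Under TMM factors 2 of the 27 were called lower, beside 4.81% of all genes. With cells weighted equally 3 of the 27 were, beside 6.11%. The calls of Mybbp1a and Wdr43 were lost with equal weights, that of Wdr43 also under both factor sets, and those of Wdr43 and Fbl after thinning. Both Mybbp1a and Wdr43 stayed beyond -1 where their calls were lost, and their signs then differed in a set. Of 15 measured Myc network genes, 1 was called higher and 1 lower (6.67% each, beside 7.23% and 6.43% of all genes). The median of that list was -0.72, beside -0.22. Without set C, 3 were called higher and 4 lower, beside 9.11% and 11.5% of all genes. Mxi1, which competes with Myc for Max, went from 14.2 to 63.4 CPM (2.09). The kinase gene Pim1 went from 71.3 to 31.4 CPM (-1.16), a call that 6 of 13 alternatives ended. Mycn was at 0 in all kept cells.

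Atf3 was also set beside the integrated stress response, a program in which ATF4 drives Ddit3 and Atf3. Of 13 measured genes, 1 was called higher and 1 lower (7.69% each, beside 7.23% and 6.43% of all genes). The median was -0.07, beside -0.22, and became 0.14 under TMM factors, beside -0.01 for all genes. Without set A, 3 were called higher and 2 lower, beside 10.8% and 9.80% of all genes. Ddit3 went from 60.9 to 566 CPM (3.19) and had a count in 36 of 37 RO-3306 cells, while Atf5 went from 32.1 to 6.24 CPM (-2.19). Atf4 itself was at 1104 and 1046 CPM. Over the 34 thinned RO-3306 cells the rho of Atf3 with Ddit3 was -0.12, and with the other measured genes of that list it lay between -0.18 (Cebpb) and 0.24 (Gadd45a). These describe sparse counts and are weak. Heat shock genes, which handling of cells can raise along with immediate early genes, had 0 of 9 called in either direction, beside 13.7% of all genes. Without set A, 2 of these heat shock genes were called lower, beside 9.80% of all genes. Their list was at 6489 CPM in control against 4973 in RO-3306, and Hspa1a and Hspb1 were at 0 in all kept cells. Their median of -0.25, beside -0.22 for all genes, became 0.01 with cells weighted equally and 0.07 without set B. Their part in the results was not tested.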

How the data were processed

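Each of the 96 libraries is 1 cell with 1 deposited file of expected counts per gene, made by the authors with featureCounts 2.0.3 per the file headers, on the GRCm39 RefSeq annotation. Counting covered the full span of each gene with its introns, and reads placed at several sites were split into fractions. The command has no strand or overlap option, so by the tool's defaults strand is ignored and reads on overlapping spans are left out. STAR and FastQC are named in the submitters' processing notes. Read filters are not given in the sources used here.

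Counts were summed over kept cells per group and scaled to CPM. Each cell of enough depth was thinned to 639000 reads (percentile 10 of kept totals), which left out 4 control and 3 RO-3306 cells. Fractional counts were rounded for intervals and thinning. No 2 kept libraries were identical. The members and lists were chosen with earlier results of these data known. The text names all members, up to 3 called genes per list and direction, and the 2 genes most like each widely detected member, of which 1 for Junb and 1 for Myc are not reported here. Heat shock, cell type marker and pathway lists are described by counts and medians. mRNA lengths came by symbol from GENCODE M21. Scaling alternatives used edgeR 4.0.16 (TMM) and DESeq2 1.42.0, and the rest Python 3.11.15. The steps were tested on simulated cells that vary less from cell to cell than the members did. That test does not cover genes held by few cells.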

Additional observations from a re-analysis of the deposited data

Results flagged for a closer look

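Among libraries below the count or the gene minimum for a kept cell, those of the RO-3306 group held Jund above the level in left-out control libraries. The 11 left-out RO-3306 libraries summed to 48.6 CPM of Jund (36.4 to 62.5), and the 19 left-out control libraries to 2.93 CPM, from 1 count. Of the 56.5 RO-3306 counts, 51.5 lay in library D10, which had 63235 counts and failed on its 743 genes. The other 9 members had at most 8 counts there.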

How the results depend on the processing

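The number of members called higher was 1 under 13 of 14 alternatives and 2 without set A, which added Fosl1. Without that set 10.8% of all genes were called higher, against 7.23% with all sets. The number called lower was 1 except under TMM factors, DESeq2 factors and equal weighting of cells, where it was 0 for each, because Junb stood at -0.92, -0.90 and -0.84. No test was made, so no count at an unadjusted p exists. The median log2 ratio of the members, -0.45, became -0.24 under TMM factors and -0.22 under DESeq2 factors, beside -0.01 and 0.01 for all genes. The members' median was -0.37 with cells weighted equally, -0.31 without set A and -0.60 without set C. Without set D it was -0.14, and without the top cell of each group -0.60. No called member or called gene named in the text changed sign under the 13 alternatives run for single genes. Of the recomputed values, 614 stayed within counting limits or within 1.5 times a count, and 376 moved further. The alveolar type II median has no value without set B or without the top cells. No paired analysis was possible because the numbers in the titles are not said to tie cells of the groups together, and no test was made. For a count of 0, the limit was taken as 3 counts, which over the RO-3306 group is 0.0323 CPM. This limit covers counting only, and not the part of each lysate that went to protein measurement.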
